A study of Arabidopsis thaliana with 48 samples.

Results

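The 10 type-A response regulators of *Arabidopsis thaliana*, *ARR3* to *ARR9* and *ARR15* to *ARR17*, were taken by gene identifier from a count table of 34262 genes and followed over all 48 libraries of an excised-leaf time course. Of the 10 genes, 3 (*ARR4*, *ARR8* and *ARR9*) had a mean of at least 1 CPM (counts scaled to the size of the library) and entered the test with 17568 genes in all. *ARR9* and *ARR4* fell over the window, though the fall of *ARR4* was lost with scaling by library totals (-0.14 on the log2 scale, edgeR adjusted p = 0.297). All 3 differed between time points, as did 63.8% of all genes tested. *ARR16*, just under the minimum, rose when genes of every level were tested, and the other 6 gave no change that passed in that fit.

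The tissue was leaf 4 of rosettes aged 21 days, detached from the plant. A cold night of 24 h (16°C, no light) came first and constant light at 22°C followed, with the leaves on buffer throughout. RNA was sequenced at 16 time points, every 30 min from 19.5 to 27 h after this treatment, with 3 replicates each. The sample labels give the tissue as excised leaf, the treatment as dark and cold for every library, and no genotype, and the methods name Col-0 as the wild type. No library came from an untreated or attached leaf, so all comparisons are between time points. Whether replicates came from separate plates or plants is not stated in the labels or methods, and a p-value here measures the spread between libraries, which may be technical.

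Cytokinin is perceived by histidine kinase receptors, which pass phosphate through phosphotransfer proteins to response regulators in the nucleus. Type-B response regulators are transcription factors that bind DNA and switch on cytokinin-responsive genes, and the type-A genes are among their early targets. Type-A proteins carry a receiver domain without a DNA-binding domain and dampen the pathway, so that their transcripts are widely used as a readout of cytokinin response. Cytokinin is known for delaying leaf senescence and for counteracting auxin in root formation.

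Library totals ran from 23572988 to 38763552 reads (median 30954455), and 1 read was worth 0.0246 to 0.0522 CPM after TMM scaling, the edgeR scaling that sets the bulk of genes level between libraries. Replicates of a time point resembled each other only in part, with a median r of 0.468 over 11500 genes of at least 10 CPM, each centred on its mean (genes are not independent replicates). Of the 48 libraries, 26 resembled a library of another time point most, which bears on every step between time points. Whether libraries were mixed or time points were alike was not tested. A pair of libraries stood apart by negative correlations to their own replicates. Of these, replicate 1 of 22.5 h resembled replicate 2 of 21 h most (r = 0.823). Replicate 3 of 24 h resembled replicate 1 of 25.5 h most (r = 0.799). Results that rest on them are given with and without them. The leaf label was checked against markers: the summed level of 5 mesophyll markers was 15400 to 76000 CPM, while the 3 shoot meristem markers summed to at most 0.0375 CPM (*WUS* and *CLV3* at 0 reads in every library). Of 4 root markers *RHD6*, *CASP1* and *COBL9* had 0, 2 and 4 reads in all, but *BGLU23*, a beta-glucosidase abundant in roots, stood at 12.8 CPM (4.52 to 27.3), so the root list was not uniformly near 0.

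The type-A genes form 5 pairs of duplicates, and the members of a pair were read at very different rates. Positions are those of the TAIR10.1 annotation, since the count table carries identifiers only and was made on TAIR10. *ARR3* (AT1G59940, chr1:22065617-22067233) and *ARR4* (AT1G10470, chr1:3441988-3444360) share 81.4% of aligned coding bases, and had 28 and 17417 reads over the 48 libraries. *ARR5* (AT3G48100, chr3:17758427-17760950) and *ARR6* (AT5G62920, chr5:25252007-25254318) share 80.1%, and had 1087 and 90 reads. *ARR7* (AT1G19050, chr1:6577833-6579314) and *ARR15* (AT1G74890, chr1:28131447-28133025) share 77.7%, and had 368 and 50 reads. *ARR8* (AT2G41310, chr2:17221840-17224880) and *ARR9* (AT3G57040, chr3:21109059-21111567) share 81.3%, and had 13222 and 5069 reads. *ARR16* (AT2G40670, chr2:16969673-16972113) and *ARR17* (AT3G56380, chr3:20905264-20906397) share 84.7%, and had 1417 reads and 1 read. Within a pair the longest identical run of aligned coding bases was 41 bases (*ARR3* and *ARR4*, and *ARR8* and *ARR9*), which limits the coding reads that could match both copies. How reads that match both copies were counted is not given in the sources used here, so low counts of a copy whose partner is abundant are uncertain.

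The genes on the opposite strand were checked because the strand setting of the counting is not given, so that reads of a gene and its antisense partner cannot be told apart. AT2G09250 overlaps *ARR8* and had 37 reads in all, and AT3G08825 overlaps *ARR9* and had 0 reads in every library. AT5G62910 overlaps *ARR6* and had 322 to 746 reads per library, against 0 to 5 for *ARR6*, so the level of *ARR6* is uncertain.

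The 250 bases before the annotated start are shown for the 3 genes whose slow trend passed the test, because type-B response regulators are known to bind short AGAT-type cores. Capitals mark 4 forms of this core on either strand, namely AGATT with its variant AGATC, and GGATT with its variant GGATC. The sequences run 5′ to 3′ on the gene's strand, and they were read from the RefSeq genome of TAIR10.1.
ARR4, chr1:3444361-3444610, minus strand: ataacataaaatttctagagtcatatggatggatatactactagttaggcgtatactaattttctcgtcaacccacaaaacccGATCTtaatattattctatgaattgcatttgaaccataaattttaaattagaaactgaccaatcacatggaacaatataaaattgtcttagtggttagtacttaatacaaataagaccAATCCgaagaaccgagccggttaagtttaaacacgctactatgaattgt
ARR9, chr3:21108809-21109058, plus strand: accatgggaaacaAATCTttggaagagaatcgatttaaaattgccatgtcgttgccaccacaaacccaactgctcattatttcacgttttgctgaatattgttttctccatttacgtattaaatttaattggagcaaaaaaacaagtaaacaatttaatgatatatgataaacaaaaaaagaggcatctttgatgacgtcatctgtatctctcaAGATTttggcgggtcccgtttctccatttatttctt
ARR16, chr2:16969423-16969672, plus strand: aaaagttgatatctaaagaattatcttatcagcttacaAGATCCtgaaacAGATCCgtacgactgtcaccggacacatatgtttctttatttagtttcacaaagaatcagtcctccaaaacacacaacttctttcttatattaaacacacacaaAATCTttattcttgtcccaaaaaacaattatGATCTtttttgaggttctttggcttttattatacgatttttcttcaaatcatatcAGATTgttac
The *ARR4* and *ARR9* windows held 2 such matches each, which is the median over 27443 protein-coding genes of the table. The *ARR16* window held 7, counting separately the AGATC and the reverse complement of GGATC that overlap in each AGATCC, and 7 or more were found in 1.49% of these windows. Among the other members, *ARR7*, whose trend did not pass, held 6 matches, and 6 or more were found in 3.92% of windows. *ARR6* held 4 and the remaining 5 held 2 each. Taken singly, AGATT was found in 7 of 10 members and 63.7% of all windows, AGATC in 5 and 26.6%, GGATT in 6 and 38%, and GGATC in 2 and 18.2%. Clock-related motifs were rare: the evening element AAAATATCT was in 0 of 10 members and 2.36% of windows, the CCA1-type site AAAAATCT in 1 (*ARR3*) and 6.69%, where its reverse complement holds AGATT, and the G-box CACGTG in 0 and 6.49%. These matches describe letters in a window and say nothing of binding.

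*ARR4* was the most abundant family member in these leaves, followed by *ARR8* and *ARR9*, and these 3 genes together took 92.2% of the 38749 reads counted on the family (84.7% to 96.1% in single libraries). *ARR4*, a type-A regulator known to interact with phytochrome B in light signalling, stood at 5.68 ± 1.67 CPM per kb of exon (SD, n = 48 libraries of all time points). *ARR8* stood at 3.70 ± 1.06 CPM per kb and was above *ARR4* in 8 libraries, among them 2 of 3 at each of 19.5, 22.5 and 24 h. *ARR9*, its duplicate, stood at 1.84 ± 0.725 CPM per kb and was below *ARR8* in 46 of 48 libraries.

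A second tier held *ARR5* at 0.499 ± 0.137, *ARR16* at 0.437 ± 0.211 and *ARR7* at 0.265 ± 0.125 CPM per kb (SD, n = 48). *ARR5* and *ARR7* are rapidly induced by cytokinin in *Arabidopsis*, and the *ARR5* promoter drives a common cytokinin reporter. *ARR5* was above *ARR16* in 34 of 48 libraries, a difference that was not tested. The means were 0.0625 CPM per kb apart, less than the spread of either gene over all time points. That spread takes in change with time. In CPM, not per kb, the mean over the first 8 time points was 0.683 for *ARR5* and 0.678 for *ARR16*. Over the last 8 it was 0.764 and 1.13. *ARR16* was above *ARR7* in 37 libraries. A gap followed, since *ARR7* was above *ARR6* in 47 libraries. *ARR6* stood at 0.042 ± 0.033, *ARR15* at 0.0308 ± 0.0375 and *ARR3* at 0.0142 ± 0.0204 CPM per kb, with single libraries overlapping. They had 90, 50 and 28 reads in all, with reads in 38, 25 and 19 of 48 libraries. The differences between these 3 genes were not tested. *ARR17* had 1 read in 1 library (21 h replicate 3), for which the exact Poisson 95% interval is 0.0253 to 5.57 reads, covering counting error only. In a library with 0 reads the limit that 3 reads set was 0.0737 to 0.157 CPM, so these genes were not detectable there rather than absent. In a bulk leaf, fewer cells of a type and less RNA per cell cannot be told apart.

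**Figure D1:**
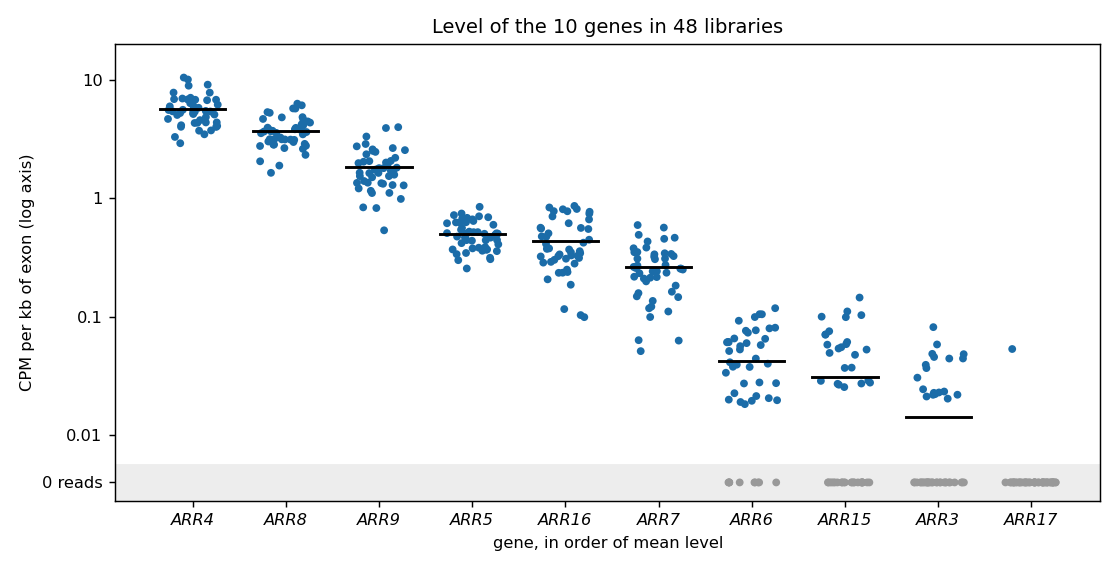
Level of the 10 genes in each of 48 libraries, as TMM-scaled CPM per kb of exon on a log axis, in order of the mean (black bar, 48 libraries of all time points). Grey points in the bottom band are libraries with 0 reads, and the mean of *ARR17* lies below the axis. *ARR4*, *ARR8* and *ARR9* lie above the rest, and *ARR17* was read in 1 library.

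The study asked whether genes of the excised leaf oscillate with a period of a few hours. Time was therefore divided here into a slow linear trend over the window, variation of 2 to 5 h, and variation faster than 2 h. Each was taken to the quasi-likelihood F test of edgeR with Benjamini-Hochberg adjustment over all 17568 genes. The terms of 2 to 5 h were waves at fixed periods, the longest of them under 5 h, so the band was not searched throughout. Any difference between time points was called for 3 of 3 tested members, against 63.8% of all genes tested, so this count does not set the family apart. The slow trend fell in 2 of 3 members (27.1% of all genes fell) and rose in 0 of 3 (27.9% of all genes rose), also 0 with DESeq2 and with limma-voom and 0 at an unadjusted p under 0.05. Variation of 2 to 5 h was called in 0 of 3 members by edgeR, DESeq2 and limma-voom (6.56% of all genes by edgeR), and 2 of 3 had an unadjusted edgeR p under 0.05, against 29.4% over the whole table tested. Variation faster than 2 h was called in 2 of 3 members, against 35.6% of all genes.

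*ARR9* showed the clearest change. Over the first 8 time points its level was 1.58 CPM in the lowest, 4.03 in the median and 7.53 in the highest library, and over the last 8 it was 1.01, 2.88 and 3.89 CPM (24 libraries each). The ranges overlapped, but every library above 3.89 CPM lay before 23.5 h. The slow trend was -0.90 on the log2 scale from 19.5 to 27 h (SE 0.16, edgeR adjusted p = 1.57e-05), with a negative slope in 3 of 3 replicate numbers. Scaled by library totals in place of TMM it was -0.59 (adjusted p = 0.00115).

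The fall of *ARR9* was not even. It stood at 4.15, 7.40 and 7.53 CPM at 20.5 h and at 1.58, 2.19 and 2.54 CPM at 21 h, a 2.59-fold drop on the log2(CPM + 0.5) scale within 1 sampling interval. At 21.5 h it was back at 4.45, 4.82 and 5.43 CPM, 2.09-fold higher. Neither step overlapped between the 3 libraries on each side. Such a drop without overlap was found in 22.4% of tested genes between 20.5 and 21 h and such a rise in 19% between 21 and 21.5 h, and 11.2% of tested genes had both steps. Later lows were 1.56, 2.09 and 2.84 CPM at 24 h, the highest in the library that stands apart, and 1.01, 1.87 and 2.45 CPM at 26 h. Variation faster than 2 h was called for *ARR9* (edgeR adjusted p = 0.000762) but lost without replicate 2 (adjusted p = 0.146). Without replicate 2, 27 genes in all had such a call, against 6252 with all libraries.

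*ARR4* followed *ARR9* in part. Its level was 6.11, 13.4 and 21.9 CPM (lowest, median and highest library) over the first 8 time points and 6.90, 11 and 14.8 CPM over the last 8, with the ranges overlapping. The slow trend was -0.45 (SE 0.13, edgeR adjusted p = 0.00521), negative in 3 of 3 replicate numbers. The first and last time points themselves were close, at 11.2 ± 3.02 and 10.5 ± 1.25 CPM (SD, n = 3). Between them the mean was 18.5 CPM at 21.5 h, 7.94 CPM at 24 h and 12.8 CPM at 25.5 h, so the level moved up and down more than once. The call of *ARR4* for any difference (adjusted p = 0.000858) was lost without replicate 1 (adjusted p = 0.0566) and without replicate 2 (adjusted p = 0.127). Over all genes, leaving out 1 replicate number cut this call from 11201 to between 1590 and 8707. *ARR4* climbed to 14.2, 16.3 and 21.0 CPM at 20.5 h, stood at 9.05, 9.79 and 10.14 CPM at 21 h and reached 14.5, 19.0 and 21.9 CPM at 21.5 h, a 1.72-fold drop and a 1.85-fold rise on the same scale, without overlap. The call of the trend was lost with scaling by library totals (-0.14, adjusted p = 0.297), without replicate 3 (-0.32, adjusted p = 0.0669) and without the 20.5 h time point (-0.32, adjusted p = 0.0512). Variation faster than 2 h (adjusted p = 0.00656) was lost without the 21 h time point (adjusted p = 0.205), without replicate 1 (adjusted p = 0.0764) and without replicate 2 (adjusted p = 0.315). In the fit without replicate 2, 27 genes in all had such a call, against 6252 with all libraries.

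*ARR8* began high and was the member most affected by 1 library. It stood at 11.4, 12.6 and 13.5 CPM at 19.5 h and at 6.53, 6.71 and 7.44 CPM at 27 h, with no overlap (24.9% of tested genes were likewise lower at 27 h without overlap). It passed through 5.50, 6.27 and 6.81 CPM at 21 h and 7.48, 10.9 and 14.9 CPM at 22 h. The drop into 21 h was 1.53-fold and the rise from 21.5 h (4.85, 6.71 and 7.06 CPM) to 22 h was 1.68-fold, neither overlapping. A rise without overlap was found in 14.1% of genes between 21.5 and 22 h. At 22.5 h replicate 1, which stands apart, held 3.88 CPM, the lowest of all 48 libraries, against 13.6 and 14.4 CPM in replicates 2 and 3.

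With all libraries the slow trend of *ARR8* was -0.31 (SE 0.16, edgeR adjusted p = 0.102) and did not pass. Without the 22.5 h replicate 1 it was -0.33 (adjusted p = 0.0178), the variation of 2 to 5 h had an adjusted p of 0.00215 in place of 0.149, and the faster variation 0.0065 in place of 0.105. Counts over all genes moved too when 1 library was left out. They ran from 0 to 4095 for variation of 2 to 5 h (1152 with all libraries) and from 5124 to 7042 for faster variation (6252 with all libraries). Without both libraries that stand apart, 3 of 3 members fell, 2 of 3 (*ARR8* with adjusted p = 0.000794 and *ARR9* with 0.0405) had variation of 2 to 5 h, and 3 of 3 had faster variation. In that fit 5052 of 17572 genes fell, 5439 had variation of 2 to 5 h (1152 with all libraries) and 7305 had faster variation, so the gain in members went with a gain over all genes. Scaled by library totals, *ARR8* had a trend of -0.0034 (adjusted p = 0.988). Its call for any difference (adjusted p = 0.0333) was lost without any 1 of 9 libraries, which were the 19.5 h replicates 1 and 3, the 21 h replicates 1, 2 and 3, the 21.5 h replicates 1 and 2, the 22 h replicate 2 and the 24.5 h replicate 1 (adjusted p = 0.0508 to 0.0766). It was also lost without replicate 2 (adjusted p = 0.637) or 3 (adjusted p = 0.114), without any 1 of the time points 19.5, 21, 21.5, 24.5 and 27 h (adjusted p = 0.0565 to 0.127), and with limma-voom (adjusted p = 0.0752). Over all genes, leaving out 1 replicate number cut this call from 11201 to between 1590 and 8707.

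The choice of scaling bears on every trend given here. Mean TMM factors were 0.964 for 19.5 h, 0.848 for 21.5 h and 1.09 for 27 h, and scaling by library totals moved the median trend of all tested genes from 0.01 to 0.32 on the log2 scale. Relative to that median *ARR9*, *ARR4* and *ARR8* lay below under both scalings, but against the library total *ARR4* and *ARR8* did not pass. Mesophyll markers moved with these falls: 5 of 5 fell, and their summed level went from 51600 to 58000 CPM at 19.5 h to 33500 to 37500 CPM at 27 h, with none at 0. The 5 mesophyll markers fell with library totals too. Markers of vasculature fell in 4 of 5 tested (with library totals 2 fell and 1 rose), although their summed level was 578 to 789 CPM at 19.5 h and 678 to 727 CPM at 27 h. Epidermis markers fell in 3 of 3 tested (2 with library totals), and guard cell markers fell in 0 and rose in 1 of 3 (3 with library totals). Their part in the trends was not tested.

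**Figure D2:**
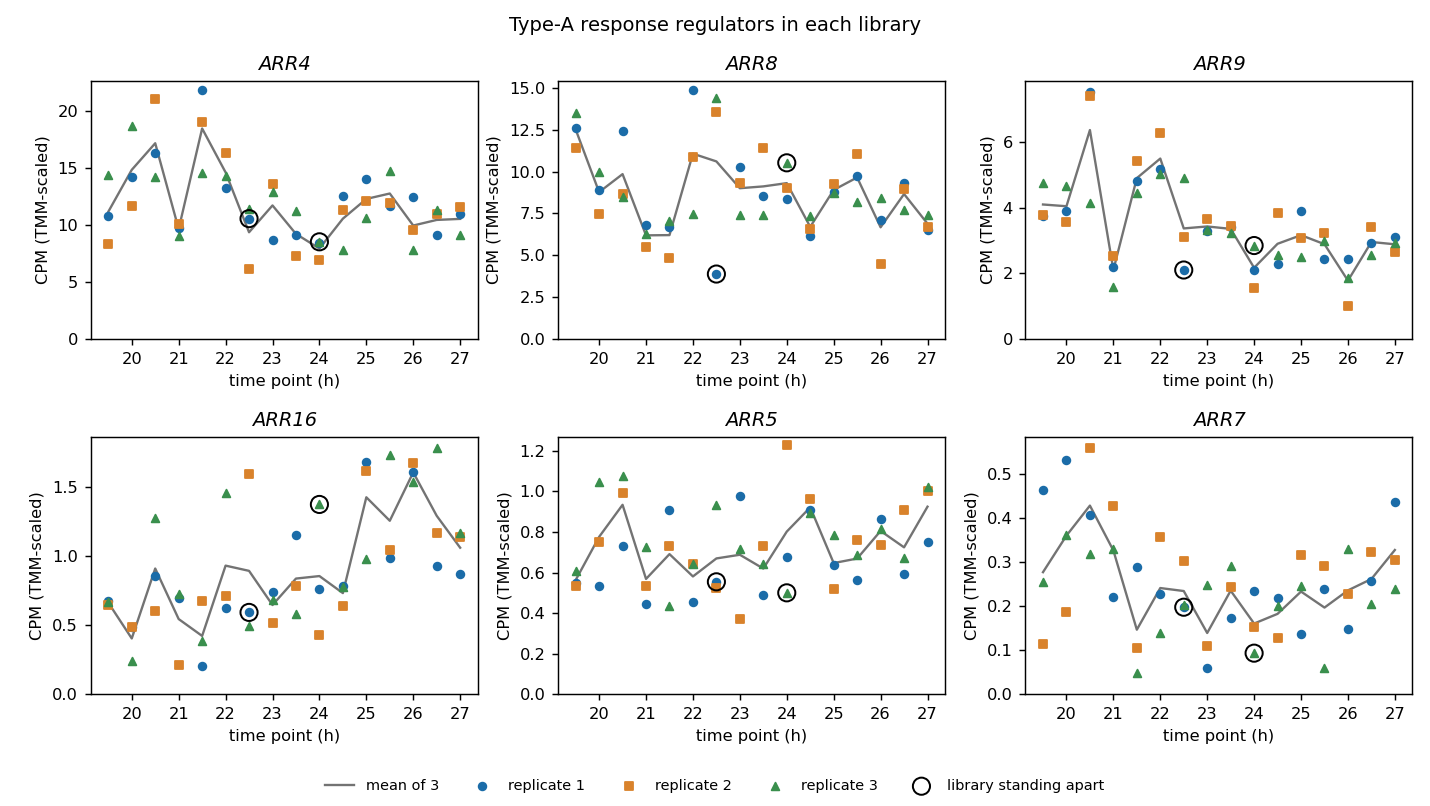
TMM-scaled CPM of 6 type-A genes against the time point in h, each point 1 library, with the mean of 3 as a line and rings around the libraries that stand apart. *ARR4* and *ARR9* dip at 21 h, *ARR8* has its lowest value in the ringed 22.5 h library, and *ARR16* is higher from 25 h on.

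*ARR16* rose. It is a short type-A regulator with little beyond its receiver domain, and with a mean of 0.906 CPM it missed the minimum of 1 CPM. It was therefore tested in the alternative without a filter, over 26605 genes with at least 1 read. There the slow trend was 1.39 (SE 0.26, edgeR adjusted p = 4.18e-05), positive in 3 of 3 replicate numbers, and 1 of 10 members rose, against 21% of genes in that fit. In the same fit 2 of 10 members fell (*ARR4* and *ARR9*; 17.9% of genes) and 4 of 10 differed between time points (*ARR4*, *ARR8*, *ARR9* and *ARR16*; 42.1% of genes).

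The level of *ARR16* was 0.206, 0.660 and 1.6 CPM (lowest, median and highest library) over the first 8 time points and 0.429, 1.1 and 1.79 CPM over the last 8, on 472 and 945 reads. Single values were 0.650, 0.669 and 0.673 CPM at 19.5 h, 0.206, 0.387 and 0.679 CPM at 21.5 h, and 1.54, 1.61 and 1.67 CPM at 26 h, the time point of the highest mean. Early and late libraries overlapped, since the 22.5 h replicate 2 held 1.6 CPM, and the 27 h libraries were at 0.875, 1.14 and 1.17 CPM. The trend was 1.67 when scaled by library totals (adjusted p = 1.04e-06) and 1.34 without the libraries that stand apart (adjusted p = 3.85e-05), and DESeq2 and limma-voom without a filter gave 1.38 and 1.41. A gene of this level rests on 5 to 66 reads per library.

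*ARR5* and *ARR7* showed no trend that passed. *ARR5* ranged from 0.370 to 1.23 CPM (9 to 40 reads) with a trend of 0.29 (SE 0.18, adjusted p = 0.231), which passed only when scaled by library totals (0.58, adjusted p = 0.00925). *ARR7* ranged from 0.0483 to 0.560 CPM (1 to 14 reads) with a trend of -0.34 (SE 0.30, adjusted p = 0.439). At 20.5 h, the time point of its highest mean, *ARR7* held 0.319, 0.407 and 0.560 CPM (31 reads summed). At 21.5 h it held 0.0483, 0.104 and 0.288 CPM (10 reads summed). Without a filter, any difference between time points did not pass for *ARR7* (edgeR adjusted p = 0.38). *ARR6*, *ARR15* and *ARR3* had at most 5, 4 and 3 reads in a library, and no change of theirs passed at this depth. Their trends without a filter were -1.39 (SE 0.64), 0.26 (SE 1.0) and 0.31 (SE 0.35). That of *ARR6* was the nearest to passing of these 3 (edgeR adjusted p = 0.0851).

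Members were compared with each other as a description, over libraries that share their depth, scaling and time points. *ARR4* and *ARR9* had a Pearson r of 0.678 over 48 libraries, 0.788 over the 16 time means and 0.412 among replicates within time points. *ARR8* and *ARR9* had 0.452, 0.45 and 0.512, and *ARR4* and *ARR8* had -0.0804, 0.0459 and -0.255. *ARR9* was thus correlated with both of the more abundant members, whose correlation with each other lay near 0 over libraries. *ARR16* had an r of -0.265 with *ARR4* and -0.285 with *ARR9* over 48 libraries.

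The genes most like *ARR4* among 11476 genes outside the family with at least 10 CPM by library totals (the 11500 above are by TMM-scaled CPM) were AT3G06470 (r = 0.901), *WRKY70*, a transcription factor of salicylic acid defence (AT3G56400, r = 0.878), and AT1G80510 (r = 0.870), over 48 libraries. Those most like *ARR8* were *APS2*, an ATP sulfurylase of sulfate assimilation (AT1G19920, r = 0.902), AT3G23910 (r = 0.902) and *BEL10*, a BEL1-like homeodomain gene (AT1G19700, r = 0.899).

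The balance between duplicates could be tested for *ARR8* and *ARR9* alone, the only pair with both genes above 1 CPM. The ratio stood at 2.84 for 19.5 h, was 1.23 by 21.5 h, was 3.74 by 24 h and ended at 2.19 (each 2 to the mean of 3 log2 ratios with 0.5 CPM added). The fitted linear change of the log2 ratio was 0.50 over the window (SE 0.21; p = 0.0227, two-sided permutation test of libraries within replicate numbers, 1 pair tested), although the mean log2 ratio was 1.51 at 19.5 h and 1.13 at 27 h. The permutation shuffled libraries singly, treating the 3 libraries of a time point as independent. The mean ratio moved up and down between time points, and the SE and p do not allow for this shared movement. They may thus overstate the evidence for a linear change. The change did not pass without replicate 2 (0.38, permutation p = 0.0924) or without replicate 3 (0.52, permutation p = 0.0817). Scaling hardly enters a ratio, which was 0.53 with library totals.

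**Figure D3:**
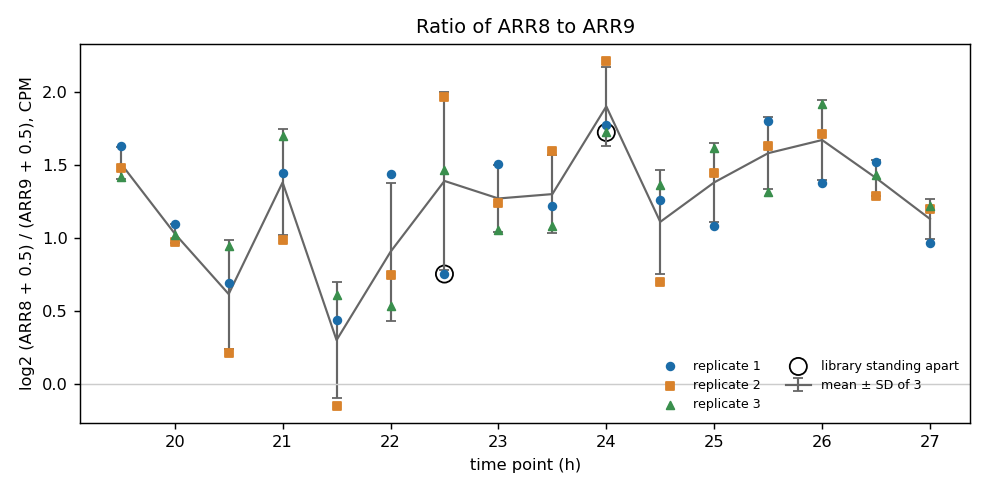
Log2 ratio of *ARR8* to *ARR9* (CPM with 0.5 added) against the time point in h, each point 1 library, with mean ± SD of 3 and rings around the libraries that stand apart. The mean is lowest at 21.5 h (0.301) and highest at 24 h (1.90).

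The rest of the pathway was read from lists of 59 genes, of which 37 were tested and 8 rose, 9 fell and 20 did not pass with TMM, while with library totals 20 rose and 1 (*CKX4*) fell. Over all 17568 genes 27.9% rose and 27.1% fell with TMM, and 11019 rose and 1635 fell with library totals, and nothing particular to the pathway is read from its counts. A trend is a line fitted through 16 time points, and in 5 of the 17 called genes (*AHP3*, *ARR11*, *IPT2*, *LOG8* and *CRF2*) the means at 19.5 and 27 h differed in the other direction. Of the histidine kinase receptors, 1 of 3 rose: *AHK3*, the most abundant at 143.6 CPM and known for its part in leaf longevity, by 0.12 (SE 0.05, edgeR adjusted p = 0.0434). *AHK2* and *AHK4* had trends of 0.14 and -0.09 and did not pass. Of the phosphotransfer proteins, 5 of 6 were tested, and *AHP2* rose by 0.24 and *AHP3* fell by 0.20 on the log2 scale (adjusted p = 4.49e-05 and 0.0428), the latter with a positive trend of 0.11 under library totals. *AHP6*, a phosphotransfer inhibitor of the pathway, had 0 reads.

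Type-B regulators, the activators of the family, fell in 3 of 6 tested. *ARR10*, *ARR11* and *ARR12* had trends of -0.25 (SE 0.08, adjusted p = 0.00571), -0.31 (SE 0.13, adjusted p = 0.0368) and -0.24 (SE 0.05, adjusted p = 0.000276). These falls depended on scaling, since with library totals none of the 3 passed (*ARR10* and *ARR12* then had positive trends) and *ARR1* and *ARR2*, named after their values were seen, rose by 0.32 and 0.27. The KMD F-box proteins, which mark type-B regulators for degradation, rose in 2 of 4, *KMD1* by 1.05 (SE 0.44, adjusted p = 0.0411) and *KMD2* by 0.66 (SE 0.18, adjusted p = 0.00216).

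Cytokinin synthesis and removal moved in both directions. Among 7 tested synthesis genes, *IPT2*, *LOG7* and *LOG8* had positive fitted trends of 0.32, 0.31 and 0.30, and *IPT7*, an isopentenyltransferase, had a trend of -0.51 (adjusted p = 0.00353 to 0.0105). The means at 19.5 and 27 h were 4 and 3.98 CPM for *IPT2* and 30.9 and 29.3 CPM for *LOG8*. Among 7 tested inactivation genes, *CKX4* and *CKX7*, which encode cytokinin oxidases, had trends of -1.13 (SE 0.17, adjusted p = 1.7e-06) and -0.45 (SE 0.10, adjusted p = 0.000536), and *UGT76C1*, a cytokinin glucosyltransferase, of -0.18 (adjusted p = 0.0335), which was 0.13 with library totals. *CKX4*, itself a gene known to respond to cytokinin, had the most negative trend of the 40 tested cytokinin genes, type-A included, and held at -0.81 with library totals (adjusted p = 0.000109). Among the cytokinin response factors, *CRF6* rose by 0.48 and *CRF2* fell by 0.47 on the log2 scale (adjusted p = 0.0123 and 0.00889). With library totals *IPT7*, *CKX7* and *CRF2* did not pass (-0.20, -0.14 and -0.16, edgeR adjusted p = 0.284, 0.299 and 0.335). The positive trends of *IPT2*, *LOG7*, *LOG8* and *CRF6* passed with library totals too. Variation of 2 to 5 h was called for *LOG8*, *CKX7* and *ARR2*, of which *ARR2* is named after its value was seen, and not for any type-A gene with all libraries in the fit.

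**Figure D4:**
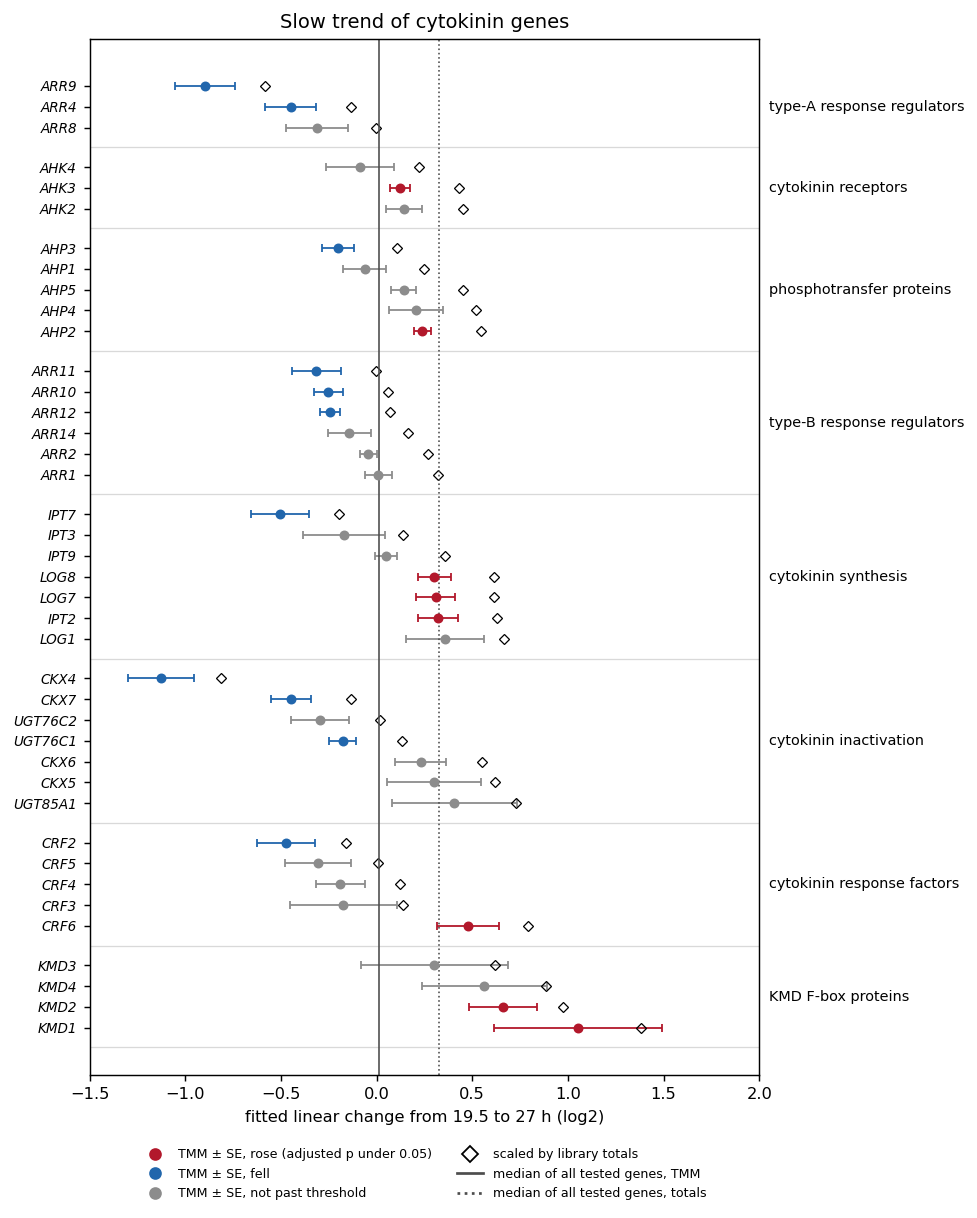
Fitted linear change from 19.5 to 27 h on the log2 scale for 40 tested cytokinin genes by list, filled points with TMM scaling ± SE, open diamonds with library totals, and lines at the median of all tested genes (0.0126 and 0.324). *ARR9* and *ARR4* lie to the left of 0 with TMM, and the diamonds lie to the right of the points.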

How the data were processed

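RNA of excised leaves was sequenced on an Illumina platform. After FastQC and STAR mapping to TAIR10, the authors deposited raw whole-number read counts per gene from HTSeq. The labels and methods give no tool versions, strand setting or annotation release. Groups were taken from the sample titles, and 0 columns of values belong to no sample.

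The deposited counts were tested with edgeR 4.0.16 (R 4.3.3, quasi-likelihood F test, TMM, Benjamini-Hochberg adjustment, threshold 0.05) on genes averaging at least 1 CPM. A single model held all 48 libraries, a factor for the replicate number (used in the methods of the study) and orthonormal time terms (linear and quadratic, 6 for 2 to 5 h, 7 for faster variation), leaving 30 residual degrees of freedom. No library was a copy of another: replicates differed with a chi-square of at least 7.78 per degree of freedom. Counts behind a value limit its precision: intervals and floors cover counting error only. The ratio of duplicates was tested by 100000 permutations.

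The members and lists were chosen with earlier results of these data known, and the lists were written from textbook knowledge and matched to RefSeq symbols of TAIR10.1. Named genes are all 10 members, up to 4 genes per other list with the smallest p of the linear term, every gene of lists of at most 6, and the 3 genes most like each tested member of at least 5 CPM. The alternatives tried were scaling by library totals or by DESeq2 size factors, no filter, 5 CPM, no replicate factor, DESeq2 1.42.0, limma-voom (limma 3.58.1), and leaving out each replicate number, library and time point. Fits without 1 library or time point kept the dispersion trend of all libraries. Tests of *ARR5*, *ARR7* and *ARR16* that combine no filter with another alternative were added after seeing the data. Positions, coding identity and sequences are from TAIR10.1 alone.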

Additional observations from a re-analysis of the deposited data

How the results depend on the processing

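Counts of the 3 tested members are given in the order any difference, rose, fell, 2 to 5 h variation and faster variation (3, 0, 2, 0 and 2 with all libraries). They stayed at these values with DESeq2 size factors and with DESeq2 as the test, and with limma-voom 2 of 3 differed (not *ARR8*). Without a filter 4 members differed and 1 rose (*ARR16*). At a minimum of 5 CPM, which leaves out *ARR9*, 1 fell and 1 had faster variation. With library totals 1 fell. Without both libraries that stand apart 2 had 2 to 5 h variation, and without the 22.5 h replicate 1 alone 1 did. Leaving out 1 replicate number, library or time point gave 1 to 3 members with any difference, 0 that rose, 1 to 3 that fell, 0 to 3 with 2 to 5 h variation and 0 to 3 with faster variation, and a change of the *ARR8* to *ARR9* ratio of 0.38 to 0.62 over replicate numbers. The lowest counts for any and faster variation came without replicate 2, where 27 of 17557 genes had a call for faster variation, against 6252 with all libraries. Over the replicate numbers left out, any difference was called for 1590 to 8707 genes, against 11201 with all libraries. Falls were called for 3273 to 4099 genes, against 4765. Variation of 2 to 5 h was called for 0 to 1742 genes over replicate numbers and 0 to 4095 over single libraries, against 1152. Without the 20.5 h time point 1 member fell, and 2 to 5 h variation was called in 2 members without 20.5 h, in 3 without 22.5 h and in 1 each without 21, 23 or 26 h, while over all 17568 genes it was called in 3338, 4766, 1438, 2761 and 3277 in these fits, against 1152. Without the 21 h time point 1 member had faster variation.

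The replicate block is part of the design because the study's methods use it. Replicate numbers did not pair the libraries (deviations from the time means had a median r of -0.0669 between libraries of the same number). Without the replicate block the member counts were 3, 0, 2, 0 and 2, the ratio change was 0.50 (permutation p = 0.0205), and 1808 genes had 2 to 5 h variation against 1152. That number was 3294 with DESeq2, 703 of 26605 without a filter, 868 with limma-voom and 5439 without the libraries that stand apart. The causes of these differences were not tested, and 7 of 10 members lay below the minimum of 1 CPM of the filtered test.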
